A study of Homo sapiens with 36 samples.

Results

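The genes of RNA polymerase II, Mediator and the general initiation factors were followed across 2 clones of the glioblastoma cell line U373, before and after ultraviolet light. Members were taken by symbol from the platform annotation: every MED gene with a number, every POLR2 subunit, every numbered TAF, TBP, and every symbol starting with GTF2A, GTF2B, GTF2E or GTF2F. The platform carried 82 probes for 68 such genes. Of these, 64 probes for 56 genes had values, out of 9659 named probes for 8743 genes with values in all. RNA of 4 groups was hybridized to 36 one-colour oligonucleotide arrays: U373cc3 after UV, U373cc3 untreated, U373neo after UV and U373neo untreated. U373cc3 constitutively expresses exogenous CC3, also called TIP30 (gene HTATIP2), an inhibitor of nuclear transport that U373 itself lacks, and U373neo is its neo control. The UV groups received 20 J/m2 according to the labels, a dose that the study's methods state differently, and recovered for 2 h. A group comprised 3 cultures, the biological replicates, each hybridized to 3 technical arrays. Each CC3 state was a single clonal population, so the spread between replicates is that between cultures of 1 clone, and CC3 and other differences between the clones cannot be told apart.

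RNA polymerase II transcribes the protein-coding genes. TFIID, made of TBP and the TBP-associated factors (TAFs), recognizes the core promoter, TFIIA and TFIIB join it, and TFIIF brings in the polymerase before TFIIE and TFIIH complete the assembly. Mediator, built of head, middle and tail modules and a separable kinase module, passes signals from activators bound elsewhere to this assembly, while some TAFs work in other complexes, such as SAGA or the polymerase I selectivity factor SL1. Photolesions in the template strand are known to stall the elongating polymerase.

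Values are deposited intensities after the authors' quantile normalization, with medians of 895 to 896 on the untreated arrays and 746 to 748 on the UV arrays. The treatments had thus been normalized apart, and the UV comparisons below rest on intensities normalized jointly over 11602 probes measured under both treatments. Correlations over all probes were 0.979 to 0.996 between technical arrays and 0.970 to 0.996 between arrays of separate cultures within a group. All probes of 12 member genes were blank on every array (GTF2A1, GTF2A1L, MED12, MED12L, MED14, MED16, MED26, TAF1, TAF13, TAF3, TAF7L and TAF8), TAF4B had values on the untreated arrays alone, and the remaining 55 genes had values in all 4 groups. The HTATIP2 probe was blank as well, so CC3 itself could not be checked, and of 16 astrocyte and glioma markers 4 had values (SOX9, SLC1A2, EGFR and CHI3L1, not GFAP or VIM). A blank does not show that a transcript was absent: the study reports vimentin (VIM) RNA as upregulated in U373cc3. Of the markers of other cell types that the array carried, values were present for 5 of 5 of neurons, 2 of 6 of fibroblasts, 1 of 5 of leukocytes, 0 of 4 of epithelia and, untreated, 2 of 6 of melanocytes (1 after UV). In bulk RNA, fewer cells with a transcript and less of it per cell cannot be told apart. Intensities of different probes are not comparable as levels, so each gene is followed across groups by its brightest probe. Calls were made at an adjusted p under 0.05 in limma, over all probes of a comparison.

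UV moved the transcripts of this machinery in both directions, as it did those of all named genes. The share that fell in each clone, and the share that rose in U373cc3, were near those of all named genes. In both clones 4 of 5 shared polymerase subunits, POLR2I, TAF9B, TAF12, GTF2A2 and MED31 rose, while TAF4, TAF1A, TAF1B, both TFIIE subunits, POLR2B, MED23, MED13 and MED13L fell. In U373cc3, 15 of 55 members rose and 17 fell, when 28.0% of 7987 named genes rose and 30.0% fell (58.0% in all). In U373neo, 23 rose and 17 fell, when 32.3% of the named genes rose and 30.1% fell (62.3% in all). The medians over the members were 0.0049 in U373cc3 and 0.10 in U373neo on the log2 scale, against 0.021 and 0.039 over all named genes. Both clones agreed in call for 14 members that rose and 15 that fell, 12 passed in neither, 14 passed in 1 clone alone, and 0 were called in opposite directions. Agreement in call was not counted over all named genes, of which 6.57% differed in UV change between the clones past the threshold. The balance moved with the scaling: on the intensities as deposited, where the median of all genes moved by -0.11 in U373cc3 and -0.12 in U373neo, 11 members rose and 22 fell in U373cc3 and 16 rose and 21 fell in U373neo. Of all named genes on that scale, 19.5% rose and 38.3% fell in U373cc3, and 24.2% rose and 37.4% fell in U373neo. With each array centred on its median (a move of 0.12 in both) the counts were 23 and 17 in U373cc3 and 27 and 17 in U373neo. The shares of all named genes were then 41.8% and 25.7% in U373cc3 and 41.9% and 25.5% in U373neo.

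**Figure D1:**
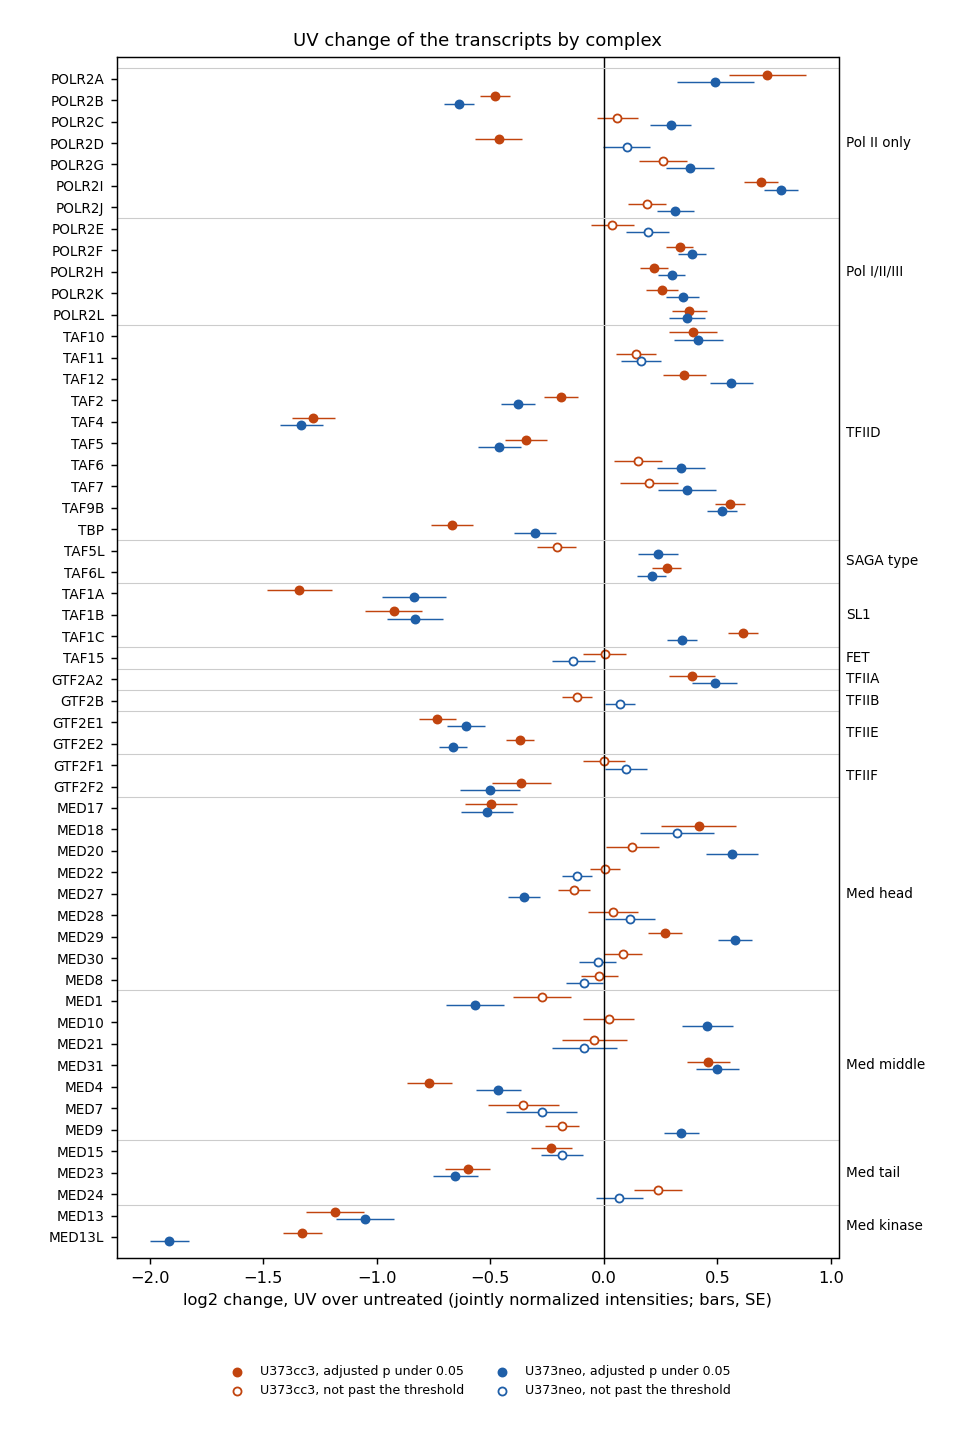
Log2 change in intensity (UV over untreated, jointly normalized) of 55 members in U373cc3 (orange) and U373neo (blue), arranged by complex, with standard errors. Filled points passed an adjusted p of 0.05. The shared polymerase subunits lie to the right of 0 in both clones, and the measured members of the Mediator kinase module, MED13 and MED13L, at or below -1.05.

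Upstream sequence is shown for members called in the same direction with UV in both clones, as far as promoters were available. RefSeq's table of promoters (GRCh38.p14) held 43 of the 56 genes. It lacked GTF2E2, MED13, MED21, MED22, MED28, MED30, MED8, POLR2G, POLR2I, POLR2J, POLR2K, TAF15 and TAF2. Of these, POLR2I rose further on average than any member shown, and MED13 fell further than TAF1A. The selection below is therefore from the 43 genes held. The 100 bases before the start site follow for the 3 members with the largest mean rise and the 3 with the largest mean fall among them, read 5′ to 3′ on the gene's own strand, with capitals marking matches to the GC box (GGGCGG), the CCAAT box (CCAAT) or an ETS core (CCGGAAG) on either strand. The first 3 belong to genes that rose: POLR2A at chr17:7484266-7484365 (plus strand), TAF9B at chrX:78139651-78139750 (minus) and MED31 at chr17:6651606-6651705 (minus). The other 3 fell: MED13L at chr12:116277694-116277793 (minus), TAF4 at chr20:62065882-62065981 (minus) and TAF1A at chr1:222589934-222590033 (minus).
POLR2A: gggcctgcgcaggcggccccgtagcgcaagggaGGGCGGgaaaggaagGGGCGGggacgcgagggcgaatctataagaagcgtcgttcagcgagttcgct
TAF9B: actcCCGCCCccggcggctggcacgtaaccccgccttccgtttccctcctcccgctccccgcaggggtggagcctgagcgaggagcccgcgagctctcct
MED31: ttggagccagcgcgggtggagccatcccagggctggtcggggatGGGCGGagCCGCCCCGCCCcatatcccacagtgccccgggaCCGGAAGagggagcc
MED13L: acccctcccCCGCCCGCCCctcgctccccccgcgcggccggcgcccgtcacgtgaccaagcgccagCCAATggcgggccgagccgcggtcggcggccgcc
TAF4: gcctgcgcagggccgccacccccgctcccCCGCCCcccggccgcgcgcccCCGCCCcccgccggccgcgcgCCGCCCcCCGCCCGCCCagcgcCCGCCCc
TAF1A: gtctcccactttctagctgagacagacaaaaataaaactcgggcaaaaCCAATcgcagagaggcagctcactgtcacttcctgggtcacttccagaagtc
The POLR2A stretch held 2 GC boxes and the TAF9B stretch 1, while that of MED31 held 3 GC boxes and 1 ETS core. Among the genes that fell, TAF4 had 6 GC boxes in 100 bases, of which 95.0% were G or C, whereas TAF1A had 1 CCAAT box and 49.0% G or C. Over the 250 bases before the start, a GC box stood in 9 of 12 members that rose in both clones, 6 of 12 that fell in both, and 42.3% of 27305 genes of the table. An ETS core stood in 4 of 12 that rose and 1 of 12 that fell, and in 23.3% of all 43 members, against 8.82% of the table. The CCAAT box was found in 4 of 12 that rose, 7 of 12 that fell and 33.0% of the table. A TATA box (TATAAA) was found in 0 of 12 and 0 of 12, in 2 of all 43 members and in 11.1% of the table. The remaining motifs searched, on both strands as well, were GCGCATGC (2 of 43 members, 2.81% of the table) and AAGATGGCG (2 of 43, 0.641%). The median share of G and C in these windows was 62.4% in members that rose, 55.2% in members that fell and 58.0% in the table. These matches describe the letters in the windows and were not tested.

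Of the 12 polymerase subunits, 6 rose and 2 fell in U373cc3, and 9 rose and 1 fell in U373neo, with medians of 0.24 and 0.33. Over all named genes 28.0% rose and 30.0% fell in U373cc3, and 32.3% rose and 30.1% fell in U373neo. POLR2A, the catalytic subunit whose carboxy-terminal tail is phosphorylated during transcription, read 2188, 2195 and 2703 in U373cc3 after UV, against 1591, 1341 and 1361 untreated. All 3 UV cultures were above all untreated ones (log2 change 0.72 ± 0.17, adjusted p = 0.0036). The U373neo cultures read 2333, 2033 and 1957 after UV, against 2048, 1251 and 1306 untreated. There the groups overlapped through 1 high untreated culture (log2 change 0.49 ± 0.17, adjusted p = 0.0252), and the call was lost without untreated replicate 2 or 3 or UV replicate 1 (adjusted p up to 0.105) and on the intensities as deposited (log2 change 0.29, adjusted p = 0.155). POLR2I, a small peripheral subunit whose yeast counterpart takes part in transcript proofreading, rose in both clones. It read 2143, 2086 and 2437 after UV, against 1403, 1302 and 1417 untreated, in U373cc3 (log2 change 0.69 ± 0.075, adjusted p = 1.59e-05). For U373neo the values were 4941, 4897 and 4885 after UV, against 2972, 2933 and 2677 untreated (log2 change 0.78 ± 0.075, adjusted p = 4.34e-06). The replicates of the treatments were apart in both clones, and its second probe rose by 0.61 and 0.62.

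Of the 5 subunits shared by all 3 nuclear RNA polymerases, 4 rose in each clone. So did 2 of the 7 other polymerase subunits in U373cc3 and 5 of 7 in U373neo. Over all named genes 28.0% rose in U373cc3 and 32.3% in U373neo. Among those no longer than 19381 bases, 45.8% and 55.2% rose, and of the shared subunits only POLR2F was longer. On the intensities as deposited all 5 rose in U373neo, when 24.2% of all named genes did. On that scale these bright probes rose more in U373neo than after joint normalization. POLR2E averaged 25465 untreated and 32134 after UV as deposited, against 26726 and 30519 jointly normalized. POLR2F read 26823, 25386 and 27168 after UV, against 22105, 20281 and 20627 untreated, in U373cc3 (log2 change 0.33 ± 0.061, adjusted p = 0.000733). U373neo cultures stood at 23871, 23653 and 23734 after UV, against 18881, 17723 and 17891 untreated (log2 change 0.39 ± 0.061, adjusted p = 0.00019). POLR2F was thus higher after UV in every culture, and the same held for POLR2K, the zinc-binding subunit shared with it. POLR2K read 21274, 21940.1 and 21240.4 after UV, against 17956, 17649.7 and 18360.1 untreated, in U373cc3 (log2 change 0.26 ± 0.072, adjusted p = 0.0104). In U373neo it read 18425, 19332 and 19102 after UV, against 16391, 13494 and 14955 untreated (log2 change 0.35 ± 0.072, adjusted p = 0.00142). POLR2H and POLR2L, the remaining shared subunits called, rose by 0.22 and 0.38 in U373cc3 and by 0.30 and 0.37 in U373neo. As deposited, POLR2L read 65486, 64078 and 65164 in U373neo after UV, near the highest intensity of all arrays, 65490. Whether the top of the scale limited this reading was not tested. POLR2E, the fifth, changed by 0.038 and 0.19 and passed in neither. POLR2B, the second-largest subunit and partner of POLR2A at the active site, was the one subunit that fell in both clones, by 0.48 in U373cc3 and 0.64 in U373neo (adjusted p = 0.000108 and 8.72e-06). POLR2C and POLR2J, the pair on which the enzyme assembles, rose in U373neo alone by this threshold (0.29 and 0.32), with changes of 0.059 and 0.19 in U373cc3 and no difference in UV change past the threshold (adjusted p = 0.278 and 0.527).

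Within TFIID, 3 of 10 measured subunits rose and 4 fell in U373cc3, when 28.0% of all named genes rose and 30.0% fell. The counts in U373neo were 5 and 4, when 32.3% of all named genes rose and 30.1% fell. TAF4, a scaffold subunit that binds activators, fell furthest. It read 643, 724 and 581 after UV, against 1479, 1711 and 1532 untreated, in U373cc3 (log2 change -1.28 ± 0.095, adjusted p = 8.49e-07, a 2.43-fold fall). The U373neo cultures read 905, 781 and 838 after UV, against 2145, 1993 and 2216 untreated (log2 change -1.33 ± 0.095, adjusted p = 4.35e-07, a 2.52-fold fall). TAF12, the histone-fold partner of TAF4, went the other way. It read 1161, 1243 and 1337 after UV, against 913, 1011 and 1003 untreated, in U373cc3 (log2 change 0.35 ± 0.095, adjusted p = 0.00797). For U373neo the values were 752, 747 and 857 after UV, against 596, 479 and 524 untreated (log2 change 0.56 ± 0.095, adjusted p = 0.000319). The replicates did not overlap in either clone. On the intensities as deposited the U373cc3 call was lost (log2 change 0.13, adjusted p = 0.26), and its second probe changed by 0.18 there (adjusted p = 0.148).

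TAF9B, a paralog of the histone-fold subunit TAF9, rose in both clones by nearly the same amount. It read 4514, 4520.4 and 4803 after UV, against 3222, 3073 and 3122 untreated, in U373cc3 (log2 change 0.55 ± 0.067, adjusted p = 3.54e-05). U373neo cultures stood at 4916, 4661 and 5056 after UV, against 3383, 3631 and 3197 untreated (log2 change 0.52 ± 0.067, adjusted p = 4.03e-05). TBP, which binds and bends the TATA region and serves all 3 polymerases, fell. It read 1449, 1269.7 and 1293 after UV, against 2207, 2108 and 2059 untreated, in U373cc3 (log2 change -0.67 ± 0.094, adjusted p = 0.000107). In U373neo it read 1601, 1324 and 1517 after UV, against 2023, 1786 and 1670.0 untreated (log2 change -0.30 ± 0.094, adjusted p = 0.0151). Both falls separated the replicates fully, but the one in U373neo missed the threshold without untreated replicate 1 or UV replicate 2 (adjusted p up to 0.0716). Among the remaining subunits TAF10, shared by TFIID and SAGA, rose by 0.39 and 0.42, while TAF2, which contacts the initiator, fell by 0.19 and 0.38, and TAF5, a WD40 scaffold, fell by 0.34 and 0.46. TAF6 and TAF7 rose in U373neo (0.34 and 0.36), with 0.15 and 0.20 in U373cc3, and TAF11 passed in neither clone. On the intensities as deposited neither rise passed (0.11 for TAF6 and 0.15 for TAF7, adjusted p = 0.391 and 0.33). The TAF7 rise was also lost without U373neo untreated replicate 1 or 2 or UV replicate 2 or 3 (adjusted p up to 0.102), that of TAF6 without UV replicate 2 (0.0696), and the TAF2 fall in U373cc3 without any 1 culture of that clone other than UV replicate 1 (up to 0.166).

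The TAFs of SL1, which load polymerase I at ribosomal RNA genes, split. TAF1A read 732, 669 and 492 after UV, against 1471, 1568 and 1695 untreated, in U373cc3 (log2 change -1.34 ± 0.14, adjusted p = 1.36e-05, a 2.53-fold fall). The U373neo cultures read 833, 857 and 696 after UV, against 1268, 1415 and 1577 untreated (log2 change -0.84 ± 0.14, adjusted p = 0.000333). TAF1B, the TFIIB-related subunit, fell alongside it, by 0.93 in U373cc3 and 0.83 in U373neo. TAF1C, by contrast, rose. It read 2211, 2189 and 2421 after UV, against 1424, 1552 and 1478 untreated, in U373cc3 (log2 change 0.61 ± 0.067, adjusted p = 1.59e-05). For U373neo the values were 1638, 1705 and 1603 after UV, against 1242, 1326 and 1331 untreated (log2 change 0.34 ± 0.067, adjusted p = 0.00086), a call lost on the intensities as deposited (log2 change 0.14, adjusted p = 0.102). Of the SAGA-type TAFs, TAF6L rose by 0.28 and 0.21, the U373neo call being lost without replicate 2 of either treatment (adjusted p up to 0.0663), and TAF5L rose in U373neo alone by this threshold (0.24, with -0.21 in U373cc3). On the intensities as deposited TAF6L passed in neither clone (0.041 in U373cc3 and -0.028 in U373neo) nor TAF5L in U373neo (-0.0046), and the TAF5L call was lost without untreated replicate 2 or 3 or UV replicate 1 or 3 (adjusted p up to 0.128). TAF15, an RNA-binding protein of the FET family that was found with TFIID, passed in neither clone.

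The general factors that enter after TFIID also differed from one another. GTF2A2, the small subunit of TFIIA, rose by 0.39 in U373cc3 and 0.49 in U373neo, but on the intensities as deposited the U373cc3 call was lost (log2 change 0.19, adjusted p = 0.121). GTF2B, the single subunit of TFIIB that positions the polymerase, read 2442, 2467 and 2456 after UV, against 2485, 2861 and 2661 untreated, in U373cc3. U373neo cultures stood at 2765, 2717 and 2977 after UV, against 2620.5, 2755 and 2669 untreated. Neither change passed (log2 change -0.12 ± 0.067, adjusted p = 0.151 in U373cc3 and log2 change 0.072 ± 0.067, adjusted p = 0.388 in U373neo), although its second probe fell in U373cc3 (log2 change -0.23, adjusted p = 0.0311). Both subunits of TFIIE, the factor that recruits TFIIH, fell in both clones: GTF2E1 by 0.73 and 0.61, and GTF2E2 by 0.37 and 0.66, in U373cc3 and U373neo in that order. Of TFIIF, which escorts the polymerase to the promoter, GTF2F2 fell by 0.36 and 0.50, and GTF2F1 passed in neither. The U373cc3 fall of GTF2F2 was lost without untreated replicate 2 or UV replicate 1 or 3 (adjusted p up to 0.138).

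In Mediator, 3 of 21 measured subunits rose and 6 fell in U373cc3, when 28.0% of all named genes rose and 30.0% fell. The counts in U373neo were 5 and 7, when 32.3% of all named genes rose and 30.1% fell. The steepest falls were those of MED13L and MED13, paralogs that tether the kinase module to the core. MED13L read 452, 511 and 448 after UV, against 1189, 1207 and 1143 untreated, in U373cc3 (log2 change -1.33 ± 0.087, adjusted p = 3.26e-07, a 2.51-fold fall). In U373neo it read 289, 344 and 306 after UV, against 1085, 1178 and 1271 untreated (log2 change -1.91 ± 0.087, adjusted p = 2.09e-08, a 3.77-fold fall). MED13 read 249, 229.6 and 170.4 after UV, against 449, 491 and 518 untreated, in U373cc3 (log2 change -1.18 ± 0.13, adjusted p = 1.55e-05). The U373neo cultures read 175, 202 and 174 after UV, against 385, 352 and 402 untreated (log2 change -1.05 ± 0.13, adjusted p = 2.67e-05). None of the 4 comparisons had overlapping replicates. Of the kinase partners, which the symbol rule left out, CDK8 fell by 1.36 in U373cc3 and by 1.56 in U373neo on the log2 scale, CDK19 fell in U373neo (-0.59, with -0.21 and adjusted p = 0.0505 in U373cc3), and the cyclin CCNC passed in neither.

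In the middle module, MED4 read 558, 559 and 498 after UV, against 859.6, 986 and 907 untreated, in U373cc3 (log2 change -0.77 ± 0.10, adjusted p = 5.78e-05). For U373neo the values were 1446, 1456 and 1407 after UV, against 1682, 2173 and 2128 untreated (log2 change -0.46 ± 0.10, adjusted p = 0.00164). MED4 thus fell in both clones, whereas MED31, a small conserved subunit of the same module, rose by 0.46 and 0.50. MED1, the subunit that binds nuclear receptors, fell in U373neo (-0.57, with -0.27 in U373cc3), and MED10 rose there (0.46, with 0.021 in U373cc3), though not on the intensities as deposited (0.24, adjusted p = 0.0857). In the head, MED17, around which the module is built, fell by 0.50 and 0.51. MED29 rose in both clones, reading 614, 634 and 547 after UV, against 505, 509 and 474 untreated, in U373cc3 (log2 change 0.27 ± 0.075, adjusted p = 0.01). In U373neo MED29 read 1188, 1266 and 1287 after UV, against 873, 784 and 850.3 untreated (log2 change 0.58 ± 0.075, adjusted p = 4.42e-05). Its call in U373cc3 was lost on the intensities as deposited (log2 change 0.030, adjusted p = 0.745). MED20, the partner of MED18 in the movable part of the head, read 584, 660.2 and 729.9 after UV, against 485, 449 and 399 untreated, in U373neo (log2 change 0.57 ± 0.11, adjusted p = 0.00118). In U373cc3 it read 533, 457 and 509 after UV, against 521, 452 and 406 untreated, with overlapping replicates (log2 change 0.13 ± 0.11, adjusted p = 0.362). MED18 itself rose in U373cc3 (0.42, with 0.32 in U373neo), although its replicates overlapped, and MED27 fell in U373neo (-0.35, with -0.13 in U373cc3). In the tail, MED23 fell by 0.60 and 0.65, MED15 fell in U373cc3 alone by this threshold (-0.23), and MED24 passed in neither. The U373cc3 calls of MED15 and MED18 were lost on the intensities as deposited (adjusted p = 0.0522 and 0.052), and each also in 5 of the 6 fits that left out 1 culture of that clone, all but those without untreated replicate 3 for MED15 and UV replicate 1 for MED18 (adjusted p up to 0.153 and 0.199).

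The UV changes of the members ordered with gene length. Over the 55 members the UV change correlated with the log10 of RefSeq gene length at r = -0.60 in U373cc3 and -0.70 in U373neo (Spearman's rho -0.59 and -0.65), as a description across genes that were measured on the same arrays. Over 7949 named genes r was -0.38 in U373cc3 and -0.52 in U373neo, so the members lay on a gradient that was general to the arrays. Of the 28 members no longer than 19381 bases, their median length, 11 rose and 3 fell in U373cc3, and 17 rose and 2 fell in U373neo. Of the 27 longer members, 4 rose and 14 fell in U373cc3, and 6 rose and 15 fell in U373neo. With the same division of all named genes, 45.8% of the short ones rose and 13.5% fell in U373cc3, and 55.2% rose and 7.73% fell in U373neo. Of the long ones, 17.4% rose and 40.0% fell in U373cc3, and 18.6% rose and 43.5% fell in U373neo. POLR2I, with 1167 bases the shortest member, was among those that rose most, and MED13L, with 319118 bases the longest, fell most in U373neo. POLR2F (88253 bases) and POLR2A (30251 bases) rose although they were longer than the median, and POLR2D (14603 bases) fell in U373cc3 although it was shorter.

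**Figure D2:**
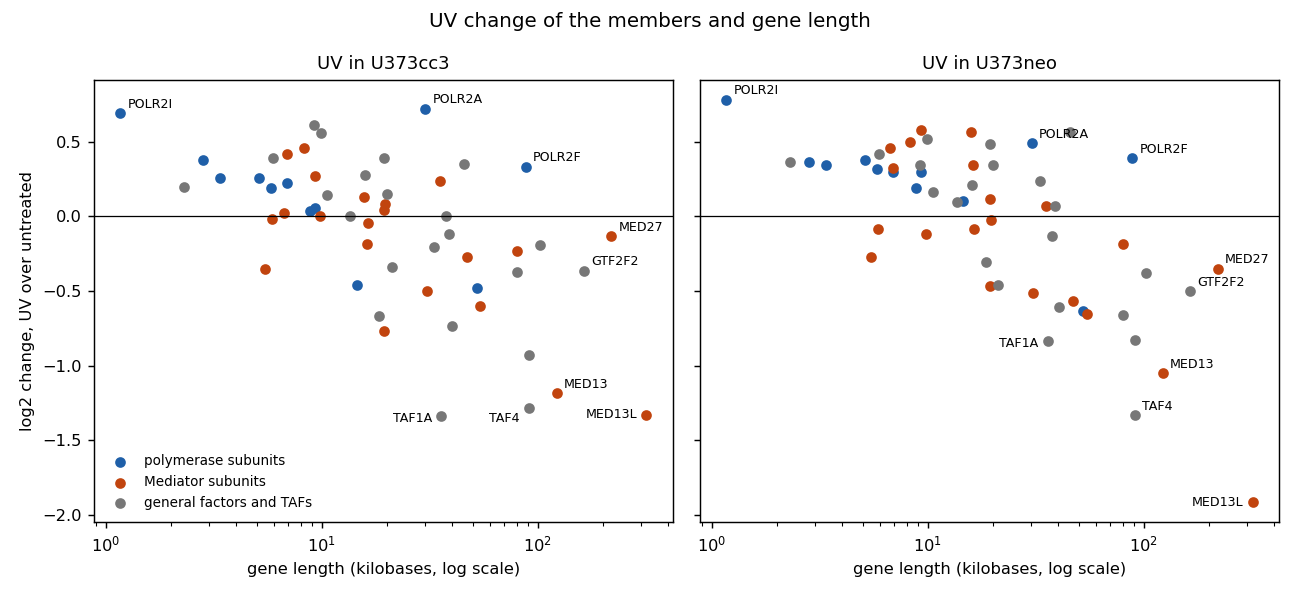
Log2 change in intensity (UV over untreated) of 55 members against gene length in kilobases (log axis), in U373cc3 (left) and U373neo (right), with polymerase subunits in blue, Mediator subunits in orange and the general factors and TAFs in grey. Of 19 members under 10 kilobases, 17 in U373cc3 and 16 in U373neo lie above 0, and MED13L, MED13 and TAF4, at the right of each panel, lie below -1 in both clones.

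The clones differed in fewer members than UV did, and mostly by lower intensity in U373cc3. MED4, POLR2I, TAF10, TAF6L, MED29 and MED28 were lower in U373cc3 under both conditions, and TAF12, TAF7 and TAF1C higher. After UV, 7 of 55 members were higher and 17 lower in U373cc3, when 19.5% of 8304 named genes were higher and 21.7% lower (41.1% in all). In untreated cells, 5 of 56 were higher and 14 lower, when 22.0% of 8426 named genes were higher and 18.0% lower (40.0% in all). The medians over the members were -0.038 after UV and 0.023 untreated, against 0.0060 and 0.029 over all named genes. Of the 55 members measured under both, 12 were lower and 3 higher under both conditions, 13 passed under 1 condition alone and 27 under neither. Calls shared by both conditions were not counted over all named genes. The smaller clone differences depended on single cultures: TAF1C was higher in untreated U373cc3 only by 0.19, a call lost in 5 of 6 fits that each left out 1 untreated culture (all but U373cc3 replicate 1, adjusted p up to 0.137) and with the replicate number as a block (adjusted p = 0.056).

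**Figure D3:**
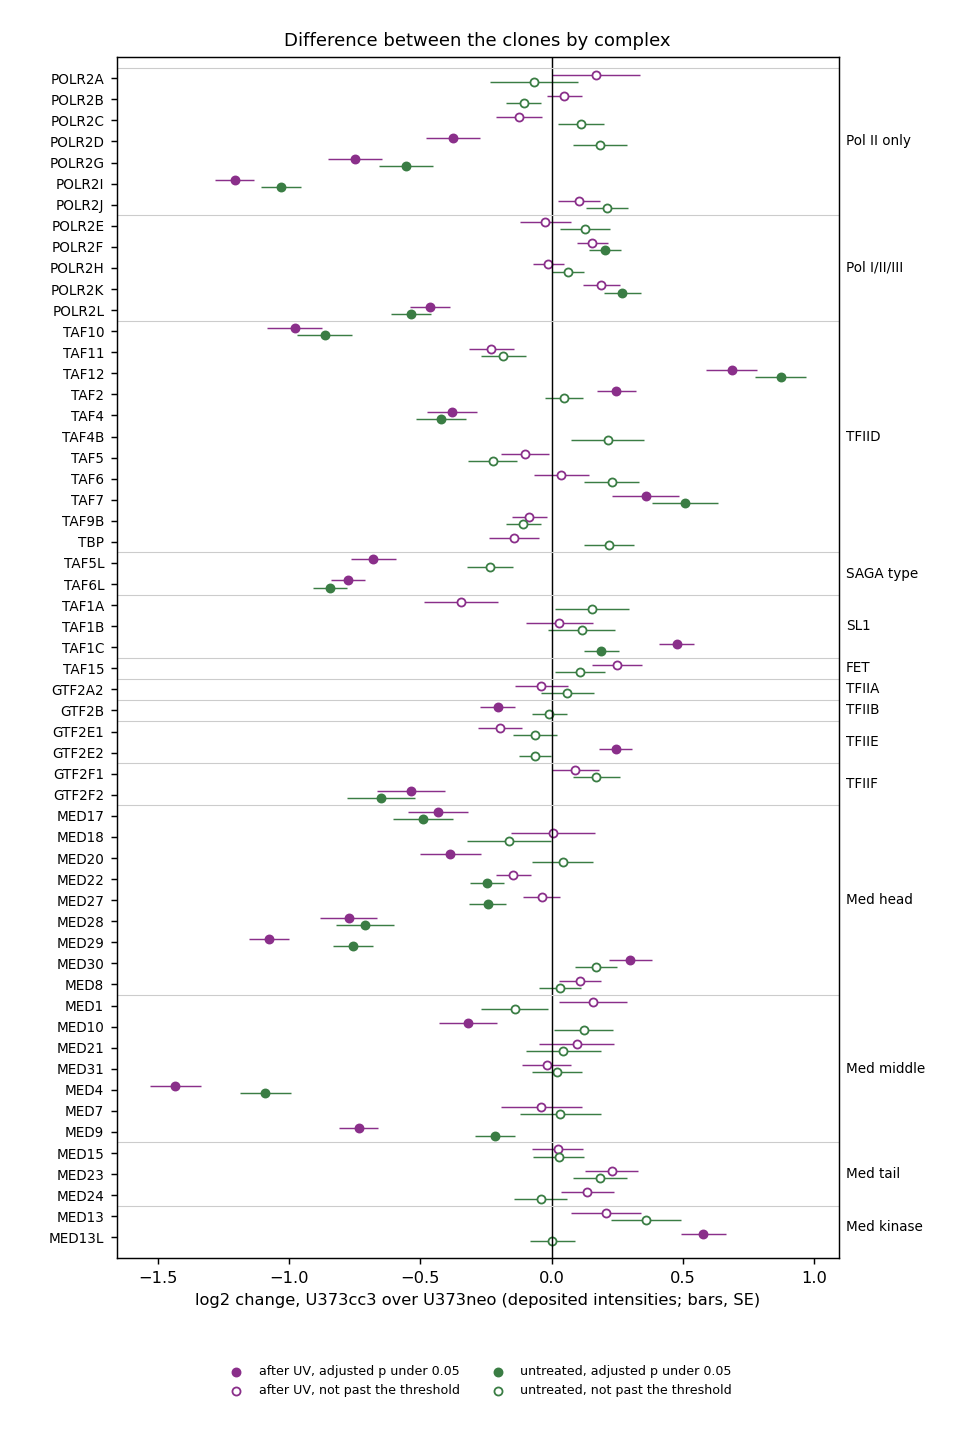
Log2 difference in intensity (U373cc3 over U373neo, deposited values) of the members after UV (purple) and untreated (green), arranged by complex, with standard errors. Filled points passed an adjusted p of 0.05. TAF12 and TAF7 lie to the right of 0 under both conditions, and MED4, POLR2I, MED29 and TAF10 furthest to the left.

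Position on the chromosomes went with these differences. All 7 measured members on chromosomes 11 and 13 were lower in U373cc3 after UV and untreated, with medians of -0.75 and -0.65, although MED17 passed under neither condition over the first range of array serial numbers alone (-0.32 after UV and -0.31 untreated, adjusted p = 0.0834 and 0.0689). They are MED4 and GTF2F2 on chromosome 13, and MED17, TAF6L, TAF10, POLR2G and POLR2L on chromosome 11. Among all named genes on these chromosomes, 425 of 629 were lower after UV (67.6%) and 447 of 633 untreated (70.6%), so that the members shared a difference common to both chromosomes. Of the members on other chromosomes, 7 of 48 were higher and 10 lower after UV, and 5 of 49 were higher and 7 lower untreated. Over all named genes on the other chromosomes, 20.8% were higher and 17.8% lower after UV, and 23.5% were higher and 13.7% lower untreated. The members' medians there were -0.0042 after UV and 0.042 untreated. CDK8, on chromosome 13 and outside the symbol rule, was lower as well, by 0.80 after UV and by 1.00 untreated on the log2 scale.

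Among these members MED4 differed most. It read 513, 515 and 459 in U373cc3 after UV, against 1345, 1355 and 1310.1 in U373neo (log2 change -1.43 ± 0.10, adjusted p = 7.18e-07, 2.7-fold lower). Untreated it read 934, 1069 and 985 in U373cc3, against 1805, 2318 and 2271 in U373neo (log2 change -1.09 ± 0.10, adjusted p = 6.38e-06). The highest U373cc3 culture stayed below the lowest U373neo culture under both conditions. TAF10 read 8090.4, 8687 and 7969 in U373cc3 after UV, against 16327, 16743 and 15677 in U373neo (log2 change -0.98 ± 0.10, adjusted p = 2.17e-05). Untreated it read 7386, 5491 and 6078 in U373cc3, against 12629, 11109 and 10617 in U373neo (log2 change -0.87 ± 0.10, adjusted p = 6.06e-05). TAF6L, which meets TAF10 in SAGA, showed the same order. It read 550.4, 515 and 532 in U373cc3 after UV, against 896, 959 and 878 in U373neo (log2 change -0.77 ± 0.065, adjusted p = 3.41e-06). Untreated it read 548, 499 and 505 in U373cc3, against 942, 902 and 940.4 in U373neo (log2 change -0.84 ± 0.065, adjusted p = 1.88e-06). MED17, GTF2F2, POLR2G and POLR2L were lower by 0.43, 0.54, 0.75 and 0.46 after UV and by 0.49, 0.65, 0.56 and 0.54 untreated. For POLR2L the U373neo cultures read 65486, 64078 and 65164 after UV, near the highest intensity of all arrays, 65490. Whether this limited the POLR2L difference was not tested.

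Elsewhere in the genome, POLR2I (chromosome 19) carried the largest difference among polymerase subunits. It read 2009, 1956 and 2296 in U373cc3 after UV, against 4843, 4796 and 4786 in U373neo (log2 change -1.21 ± 0.075, adjusted p = 3.93e-07). Untreated it read 1506, 1399.8 and 1523 in U373cc3, against 3131, 3089.6 and 2832 in U373neo (log2 change -1.03 ± 0.075, adjusted p = 1.28e-06). Its second probe gave a still larger difference of -1.83 and -1.77, so the probes agreed in direction and not in size. POLR2D, which forms with POLR2G the stalk of the enzyme, read 648, 568 and 625 in U373cc3 after UV, against 744, 879.7 and 768 in U373neo (log2 change -0.38 ± 0.10, adjusted p = 0.013). That call was lost without UV replicate 2 of either clone (adjusted p up to 0.0601), and untreated the difference was 0.19 (adjusted p = 0.177). POLR2F and POLR2K were higher in untreated U373cc3. POLR2F read 21141, 19486 and 19805 in U373cc3, against 18197, 17086 and 17246 in U373neo (log2 change 0.20 ± 0.060, adjusted p = 0.0205), a call lost without U373cc3 replicate 1 or U373neo replicate 2 or 3 (adjusted p up to 0.0692). POLR2K read 17318, 17020.2 and 17706 in U373cc3, against 15813, 13046 and 14452 in U373neo (log2 change 0.27 ± 0.072, adjusted p = 0.0116). After UV their differences were 0.16 and 0.19, past no threshold (adjusted p = 0.0627 and 0.0576). POLR2A did not separate the clones under either condition (log2 change 0.17 ± 0.17, adjusted p = 0.473 after UV and log2 change -0.068 ± 0.17, adjusted p = 0.772 untreated), while over the arrays of a single range of serial numbers it was higher after UV (log2 change 0.38, adjusted p = 0.0459).

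TAF12 was the member most above its level in U373neo. It read 1076, 1154 and 1245 in U373cc3 after UV, against 689.6, 685 and 787 in U373neo (log2 change 0.69 ± 0.10, adjusted p = 0.000172). Untreated it read 990.3, 1096 and 1086 in U373cc3, against 650.3, 519.9 and 569.6 in U373neo (log2 change 0.87 ± 0.10, adjusted p = 3.14e-05). Its second probe gave 0.62 and 0.99, and the clones did not overlap by either probe. TAF7, which regulates the TFIID subunit TAF1, read 1701, 2010.2 and 1660.4 in U373cc3 after UV, against 1360.1, 1399 and 1419 in U373neo (log2 change 0.36 ± 0.13, adjusted p = 0.0431). Untreated it read 1560.3, 2168 and 1674 in U373cc3, against 1209, 1141 and 1431 in U373neo (log2 change 0.51 ± 0.13, adjusted p = 0.00808). The UV call of TAF7 was lost when any 1 UV culture other than U373cc3 replicate 3 was left out (adjusted p up to 0.156). TAF4, the partner of TAF12, was lower in U373cc3, reading 590.4, 665 and 533 after UV, against 832, 718 and 770.5 in U373neo (log2 change -0.38 ± 0.095, adjusted p = 0.00779). Untreated it read 1587, 1833 and 1644 in U373cc3, against 2289, 2129 and 2361 in U373neo (log2 change -0.42 ± 0.095, adjusted p = 0.00439). TAF1C read 2076, 2054 and 2281 in U373cc3 after UV, against 1526, 1589 and 1492 in U373neo (log2 change 0.48 ± 0.067, adjusted p = 0.000173). Untreated it read 1527, 1667 and 1588 in U373cc3, against 1338, 1425 and 1431 in U373neo (log2 change 0.19 ± 0.067, adjusted p = 0.0428). TAF5L was lower after UV (-0.68, with -0.23 and adjusted p = 0.0507 untreated), and TAF2 higher after UV (0.25, with 0.047 untreated), the TAF2 call being lost without U373cc3 UV replicate 1 or 2 or U373neo UV replicate 2 (adjusted p up to 0.0841). TBP differed by -0.14 after UV and 0.22 untreated and passed under neither. GTF2B was lower in U373cc3 after UV by 0.21, a call lost without any 1 of the U373cc3 UV cultures or U373neo UV replicate 3 (adjusted p up to 0.116), and differed by -0.0084 untreated. GTF2E2 was higher after UV by 0.24. TAF4B, a paralog of TAF4 measured untreated alone, read 140.0, 154 and 105 in U373cc3, against 112, 109.8 and 119 in U373neo, with overlapping replicates (log2 change 0.21 ± 0.14, adjusted p = 0.243).

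No Mediator subunit was higher in untreated U373cc3 past the threshold, while 7 of 21 were lower, 5 of them in the head. Of all named genes, 22.0% were higher and 18.0% lower untreated. After UV 2 subunits were higher and 7 lower, when 19.5% of all named genes were higher and 21.7% lower. Those lower under both conditions include MED4 on chromosome 13 and MED17 on chromosome 11. On these chromosomes 67.6% of named genes were lower after UV and 70.6% untreated. MED29 read 564, 583 and 502 in U373cc3 after UV, against 1101, 1177 and 1197 in U373neo (log2 change -1.08 ± 0.075, adjusted p = 8.54e-07, 2.11-fold lower). Untreated it read 547, 552 and 513 in U373cc3, against 949.6, 853 and 924 in U373neo (log2 change -0.76 ± 0.075, adjusted p = 1.46e-05). MED28, another head subunit, was lower by 0.77 after UV and 0.71 untreated, and by 0.86 and 0.83 with its second probe. MED22 and MED27 of the head were lower untreated alone (-0.25 and -0.24), and a second MED22 probe gave 0.00074. The MED27 call was lost without untreated replicate 2 of either clone (adjusted p up to 0.0728). MED20 read 491, 423 and 468 in U373cc3 after UV, against 535, 605 and 670.0 in U373neo (log2 change -0.39 ± 0.12, adjusted p = 0.0204). Untreated it read 565, 488 and 438 in U373cc3, against 526, 487 and 432 in U373neo, with overlapping replicates (log2 change 0.042 ± 0.12, adjusted p = 0.795). The difference in MED20 after UV was lost without U373cc3 UV replicate 2 or U373neo UV replicate 2 or 3 (adjusted p up to 0.0856). MED10 was lower after UV (-0.32), a call lost without any 1 of the UV cultures (adjusted p up to 0.116), and MED30 and MED13L higher (0.30 and 0.58). The tail subunits MED15, MED23 and MED24 passed under neither condition.

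For 3 of 55 members, MED13L, MED9 and POLR2D, the clones differed past the threshold in their UV change, 1 upward and 2 downward in U373cc3 relative to U373neo. Of 7987 named genes 6.57% did so, 2.37% upward and 4.21% downward. MED13L fell less in U373cc3 than in U373neo, from untreated intensities of 1281, 1299.9 and 1235 in U373cc3 and 1175, 1272 and 1369 in U373neo, which overlapped (log2 change 0.0026 ± 0.087, adjusted p = 0.985). The difference of its UV changes was 0.58 ± 0.12 on the log2 scale (adjusted p = 0.0222), and after UV its deposited intensities were 418, 472 and 413 in U373cc3 and 267, 320.3 and 286 in U373neo. It passed in 9 of 12 fits that left out 1 culture and not without U373cc3 untreated replicate 3, U373neo untreated replicate 3 or U373neo UV replicate 3 (adjusted p up to 0.055).

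MED9, a small subunit of the middle module, read 526, 583 and 495 after UV, against 589.7, 617 and 611 untreated, in U373cc3 (log2 change -0.18 ± 0.076, adjusted p = 0.0548). U373neo cultures stood at 824, 911 and 936 after UV, against 681, 724 and 699.5 untreated (log2 change 0.34 ± 0.076, adjusted p = 0.00211). The rise in U373neo was lost on the intensities as deposited (log2 change 0.096, adjusted p = 0.3), U373cc3 passed in neither direction, and the difference of the changes was -0.53 ± 0.11 (adjusted p = 0.0205). This call was lost without U373cc3 untreated replicate 2 or U373neo UV replicate 2 or 3 (adjusted p up to 0.0576). POLR2D read 706, 617 and 681 after UV, against 1059, 841 and 873 untreated, in U373cc3 (log2 change -0.46 ± 0.10, adjusted p = 0.00277). In U373neo it read 809.7, 955 and 836 after UV, against 877, 789 and 756 untreated, with overlapping replicates (log2 change 0.10 ± 0.10, adjusted p = 0.428). POLR2D fell in U373cc3 alone by this threshold, with a difference of the changes of -0.56 ± 0.15 (adjusted p = 0.0459). That call held without U373neo untreated replicate 1 or U373neo UV replicate 1 and was lost in the other 10 fits that left out 1 culture (adjusted p up to 0.108). In the clone comparison MED9 was lower in U373cc3 after UV (log2 change -0.74 ± 0.076, adjusted p = 1.67e-05) and untreated (log2 change -0.22 ± 0.076, adjusted p = 0.0422), though the untreated call was lost without any 1 of the untreated cultures other than U373neo replicate 1 (adjusted p up to 0.121). The remaining 52 members passed no such test. TAF5L (-0.45, adjusted p = 0.054) and GTF2E2 (0.29, adjusted p = 0.0735) came nearest, TAF1A had a difference of -0.50 ± 0.20 (adjusted p = 0.151), and TBP one of -0.37 ± 0.13 (adjusted p = 0.119).

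**Figure D4:**
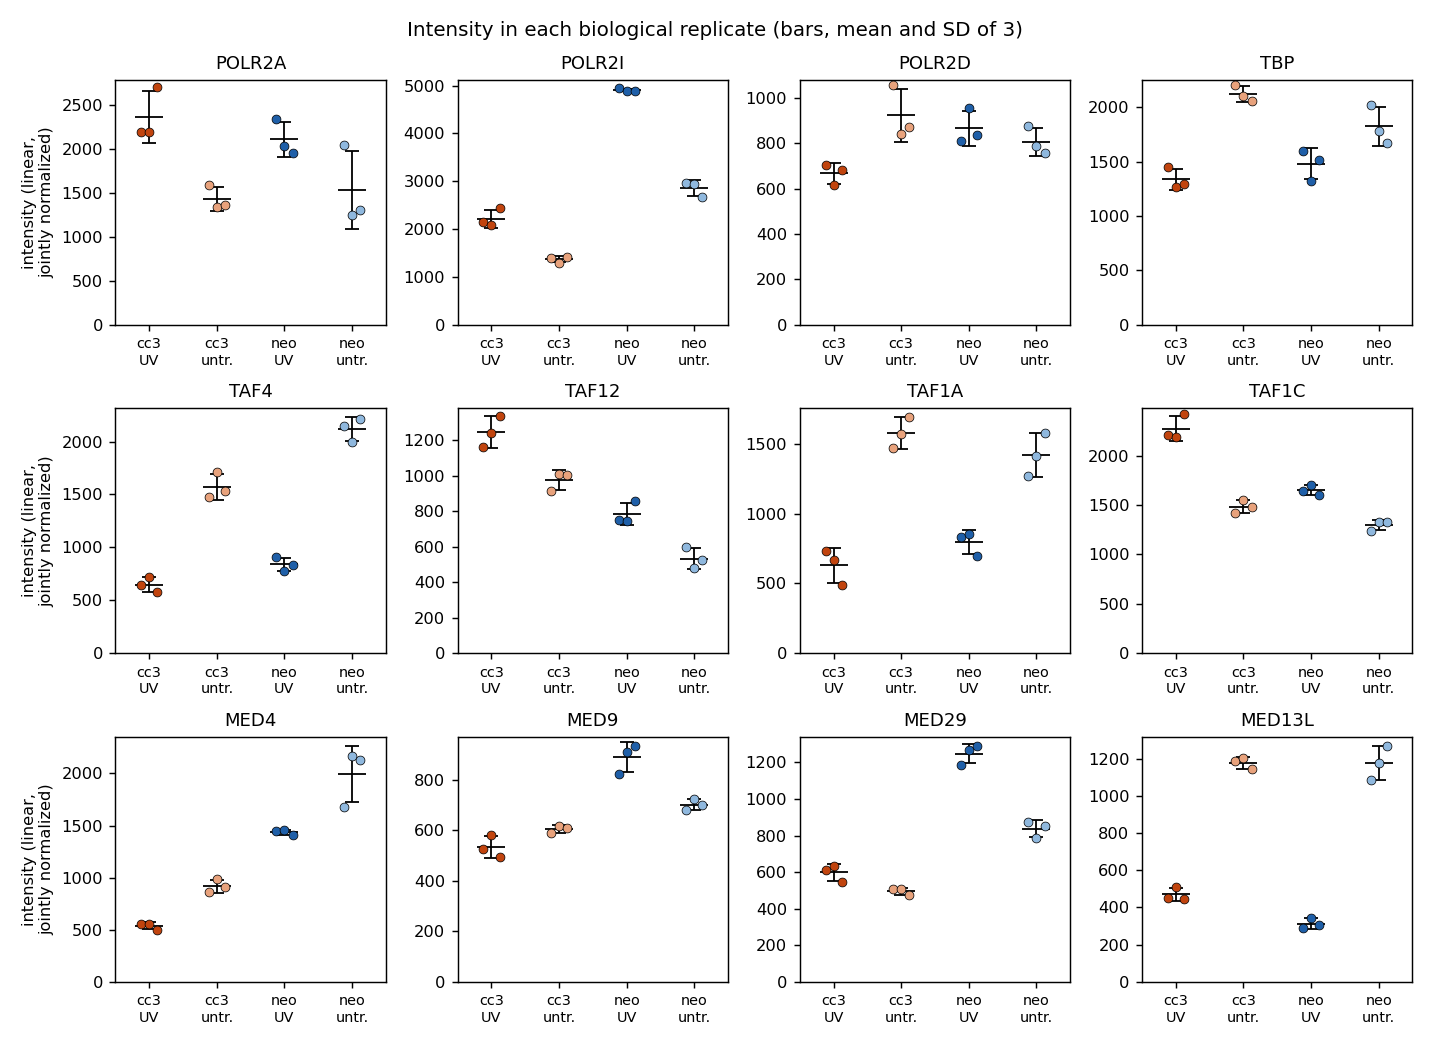
Jointly normalized intensity (linear axis from 0) of 12 members in each of 3 biological replicates per group, with mean and SD, in U373cc3 after UV, U373cc3 untreated, U373neo after UV and U373neo untreated. MED13L fell to 448 to 511 in U373cc3 and 289 to 344 in U373neo, MED9 was above its untreated values after UV in U373neo, and POLR2D was below them after UV in U373cc3.

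The array labels carry serial numbers in 3 ranges that were spread unevenly over the groups, and what they mark is not given in the sources used here. Of these, the first range held 3 of 9 arrays of U373cc3 after UV, 4 of U373cc3 untreated, all 9 of U373neo after UV and 5 of U373neo untreated. Over the arrays of that range alone, 12 members rose and 15 fell with UV in U373cc3, when 19.8% of all named genes rose and 27.8% fell, and 24 rose and 19 fell in U373neo, when 32.4% rose and 29.2% fell. Between the clones 6 were higher and 17 lower in U373cc3 after UV, when 15.4% of all named genes were higher and 21.9% lower, and 6 were higher and 12 lower untreated, when 22.1% were higher and 17.3% lower. Calls lost in it were those of GTF2B, MED10, MED17, MED30, TAF2 and TAF7 between the clones after UV, of MED17, MED27 and TAF1C untreated, of GTF2F2, MED15, MED17, MED29, MED31, TAF10 and TAF6L for UV in U373cc3, and of TAF5L for UV in U373neo, each in the same direction with an adjusted p of 0.056 to 0.323. Within it the difference of the UV changes was 0.52 for MED13L (adjusted p = 0.0607), -0.57 for MED9 (adjusted p = 0.0195) and -0.61 for POLR2D (adjusted p = 0.0328). Clone differences of MED4, POLR2I, TAF10, MED29 and TAF12 within it were -1.54, -1.07, -1.03, -1.20 and 0.79 after UV and -1.21, -0.94, -0.71, -0.68 and 0.86 untreated. The other 2 ranges held no array of U373neo after UV, so they gave no value for it.

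The rest of the same machinery, outside the symbol rule, was counted from a list of 60 genes, of which 42 had values on both treatments and 44 untreated. With UV, 9 rose and 18 fell in U373cc3, and 13 rose and 18 fell in U373neo. Over all named genes 28.0% rose and 30.0% fell in U373cc3, and 32.3% rose and 30.1% fell in U373neo. The same shares belong beside the smaller lists below. Between the clones, 10 were higher and 13 lower after UV, when 19.5% of all named genes were higher and 21.7% lower. Untreated, 11 were higher and 8 lower, when 22.0% of all named genes were higher and 18.0% lower. Of 8 TFIIH genes, whose helicases also open DNA for nucleotide excision repair, 3 rose and 3 fell in U373cc3, and 3 rose and 4 fell in U373neo. The helicase gene ERCC2 rose by 0.44 in U373cc3 and 0.67 in U373neo, while the kinase gene CDK7 fell by 0.79 in U373cc3 and by 0.73 in U373neo on the log2 scale. Of 13 elongation factors, 4 rose and 4 fell in U373cc3, and 6 rose and 4 fell in U373neo. Of 4 TBP partners, 0 rose and 2 fell in U373cc3, and 1 rose and 3 fell in U373neo. Of 14 subunits particular to polymerases I and III, 2 rose and 8 fell in U373cc3, and 3 rose and 5 fell in U373neo, beside the 4 of 5 shared subunits that rose in each clone.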

How the data were processed

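Total RNA was labelled with Cy5 and hybridized to single-colour human oligonucleotide arrays, and the authors scanned them, summarized each probe and quantile-normalized the arrays of each treatment separately. The deposited values are linear intensities, with probes blank for a reason not given in the sources used here. No background signal or depth is given, and precision is limited by the 3 cultures per group. Of 30968 gene probes, 12300 had values untreated, 12343 after UV and 11602 in both. Probe symbols came from the platform annotation. A current RefSeq symbol (GRCh38.p14) was found for 9615 named probes, and it replaced the platform symbol for 1486 of them.

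Log2 intensities were averaged over the 3 technical arrays of a culture, and the 12 biological replicates entered 1 limma model (R 4.3.3, limma 3.58.1, statmod 1.5.0) with Benjamini-Hochberg adjustment over all probes of a comparison. Clones were compared on deposited intensities, and UV changes and their difference after joint quantile normalization of the 36 arrays. A gene was represented by its brightest probe, and errors are standard errors. Values in each replicate are given for members among the 4 largest rises or falls past the threshold in a comparison of groups, for those whose UV change differed between clones, and for TBP, POLR2A and GTF2B. Members and lists were chosen with earlier results of these data known. The code was tested on simulated data. Alternatives were the scalings, an offset of 50, leaving out the dimmest 25% of probes, eBayes with trend, the serial ranges, the replicate block, the methods' t-test, the mean over a gene's probes and leaving out each replicate.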

Additional observations from a re-analysis of the deposited data

Results flagged for a closer look

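The UV change differed between the clones past the threshold for MED13L, MED9 and POLR2D, by the interaction term of the limma model. For MED13L the difference of the log2 UV changes, U373cc3 minus U373neo, was 0.58 (adjusted p = 0.0222): it fell in 3 of 3 cultures of each clone relative to every untreated culture, and less in U373cc3. For MED9 the difference was -0.53 (adjusted p = 0.0205), and for POLR2D -0.56 (adjusted p = 0.0459). With the replicate block these differences had an adjusted p of 0.0315 for MED13L, 0.032 for MED9 and 0.062 for POLR2D, so that the POLR2D call was lost. On the intensities as deposited, the POLR2D call was lost as well, with a difference of -0.56 (adjusted p = 0.05002, just over the threshold).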

How the results depend on the processing

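Of the single-gene values and medians recomputed under the alternatives, 6236 stayed on their side of the threshold or, for medians, near their main value. Another 178 moved past the threshold, 193 no longer passed, and 3 turned with a call in either fit. Turns without a call in either fit were not counted as such. The 2 medians that moved were the members' median UV change, -0.030 in U373neo as deposited and 0.13 in U373cc3 with each array centred. Fitting single arrays, 3 technical repeats of each culture with the culture as a random block, and the serial range in the model gave 10 members higher in untreated U373cc3, against 5 in the biological replicates, and 9 differences of UV change, against 3, while over all named genes 27.1% were higher untreated, against 22.0%, and 16.4% differed in UV change, against 6.57%. Without the range the single arrays gave 8 and 6, and the arrays of the first range alone gave 5 differences of UV change. Over all named genes the single arrays without the range gave 2124 of 8426 higher untreated, against 1853. Their UV change differed upward in 390 of 7987 and downward in 639, against 189 and 336, and 9.11% differed over the first range alone. The methods' t-test gave 2 members higher in untreated U373cc3 after Benjamini-Hochberg adjustment and 11 higher after UV without adjustment, against 7, and it was not run on the difference of UV changes. Over all named genes these were 1159 of 8426, against 1853, and 1884 of 8304, against 1617. Adjusted, it kept 12 of 19 clone calls untreated (not GTF2F2, MED17, MED27, POLR2G, POLR2K, TAF1C and TAF7). Between the clones after UV it kept 19 of 24 (not MED20, POLR2D, TAF2, TAF4 and TAF7). With UV it kept 27 of 32 calls in U373cc3 (not GTF2F2, MED15, MED18, TAF10 and TAF2). In U373neo it kept 31 of 40 (not MED1, MED17, POLR2A, POLR2G, POLR2J, TAF5L, TAF6, TAF7 and TBP). Centring each array on its median gave 23 members that rose with UV in U373cc3, against 15, and over all named genes 3336 rose and 2054 fell there, against 2235 and 2398 after joint normalization and 1555 and 3063 as deposited. In U373neo the same splits were 3347 and 2038, 2576 and 2401, and 1933 and 2990. UV changes turned for TAF5L (log2 change -0.0046, adjusted p = 0.97) and TAF6L (-0.028, adjusted p = 0.738) in U373neo on the intensities as deposited, and for GTF2F1 in U373cc3 (0.26, adjusted p = 0.0225) with each array centred on its median. The cause was not tested. Leaving out 1 culture gave 5 to 10 members higher and 13 to 18 lower in U373cc3 after UV, and 3 to 6 higher and 12 to 15 lower untreated. Of 8304 named genes it gave 1312 to 1731 higher and 1452 to 1885 lower after UV. Untreated it gave 1496 to 1941 higher and 1297 to 1601 lower of 8426. It gave 14 to 18 members that rose and 14 to 18 that fell with UV in U373cc3, 19 to 24 and 16 to 17 in U373neo, and 0 to 5 differences of UV change, with 0 without U373neo UV replicate 3, 1 without U373cc3 untreated replicate 2 or 3, U373neo untreated replicate 3 or U373neo UV replicate 2, and 5 without U373neo untreated replicate 1. Of 7987 named genes 1862 to 2334 rose and 2106 to 2472 fell in U373cc3, and 2301 to 2585 and 2227 to 2420 in U373neo. Their UV change differed upward in 77 to 255 and downward in 95 to 408. The 3 members higher in untreated U373cc3 were counted without U373neo untreated replicate 2. The labels give samples of different groups shared replicate numbers and no other pairing. Deviations from the group means correlated at -0.34 to 0.37 between samples of the same number and at -0.39 to 0.34 between samples of different numbers. With 3 cultures per group these correlations cannot decide whether cultures of the same number were paired. With the replicate block 7 members were higher and 17 lower in U373cc3 after UV, 5 and 14 untreated, 16 rose and 15 fell with UV in U373cc3, 24 and 17 in U373neo, and 2 differences of UV change passed. Over all named genes the block gave 18.3% higher and 20.8% lower after UV, and 20.6% and 17.5% untreated. With UV 26.7% rose and 29.3% fell in U373cc3, 31.5% and 29.4% in U373neo, and 4.19% differed in UV change. Calls lost with the block were TAF1C untreated, MED15 and TAF2 for UV in U373cc3 and POLR2D for the difference of UV changes.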
